A study of Rattus norvegicus with 12 samples.

Results

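Both zones of articular cartilage were set against the resting zone (RZ) of the growth plate. The articular zones were the superficial zone (SZ) and the intermediate/deep zone (IDZ). The proliferative and hypertrophic zones of the growth plate were not arrayed. The comparison therefore covers RZ and not the whole growth plate. For each gene the mean of the SZ and IDZ means (8 arrays) was taken minus the RZ mean (4 arrays). Genes were kept where all 8 articular arrays lay on the same side of all 4 RZ arrays. A gene thus had to separate articular cartilage from RZ at both depths. They also had to be called, that is differ by at least 2-fold at an adjusted p under 0.05. Of 14300 genes measured, 193 were higher in both articular zones and 105 were higher in RZ by these criteria (2.08% of all genes). These 298 genes are called articular genes and RZ genes here.

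The samples came from proximal tibial epiphyses of Sprague-Dawley rats aged 10 days with no treatment named, in which the zones were cut apart by hand under a microscope, with 4 Affymetrix Rat Gene 1.0 ST arrays per zone. Each SZ sample held tissue of both tibias of 1 animal. Each IDZ and RZ sample pooled 4 pieces from 2 animals, with equal numbers in IDZ and RZ marking the same animals, and the 4 SZ animals were among the 8 that gave the other zones. All values are log2 expression as deposited, a difference of 1 being 2-fold, and differences are given as articular minus RZ unless stated otherwise. A microdissected piece is a mixture, so fewer cells of a type and less RNA per cell cannot be told apart.

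Articular chondrocytes descend largely from cells of the embryonic joint interzone, and those at the surface secrete lubricin, whereas growth plate chondrocytes of the resting zone act as a reserve for the columns that proliferate, enlarge and are replaced by bone. The pathways that steer growth plate chondrocytes include Indian hedgehog, PTHrP with its receptor, BMPs, Wnts and FGFs.

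The tissue label was checked against chondrocyte markers. The mean log2 level of the 11 measured markers ran from 11.56 to 11.95 in SZ, from 12.43 to 12.46 in IDZ and from 12.08 to 12.25 in RZ. All 12 arrays therefore carried chondrocyte transcripts at a high level, with SZ lowest. Type II collagen (Col2a1), the main cartilage collagen, had zone means of 13.65, 13.84 and 13.75 in SZ, IDZ and RZ.

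Without the requirement of no overlap, 323 genes (2.26%) were called higher in articular cartilage and 115 (0.804%) higher in RZ, 438 (3.06%) in all. By the absence of overlap alone, with neither a minimum difference nor a p, 524 genes (3.66%) were above RZ on all 8 articular arrays and 809 (5.66%) below. By adjusted p alone, 1405 genes were higher in articular cartilage and 1336 higher in RZ. Genes higher in articular cartilage made up 73.7% of the called genes and 39.3% of the genes with no overlap. Genes below RZ on all articular arrays were thus more numerous but mostly differed by less than 2-fold, with a median difference of -0.48 against 0.78 for those above. Of the called genes, 130 of those higher in articular cartilage and 10 of those higher in RZ had some overlap of arrays. The last genes to qualify were Sgk1 with a difference of 1.00 and Grb14 with -1.01, and the first to fall short were Smpdl3a with 0.99 and Tanc1 with -0.99.

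Whether an articular gene is shared by both depths or graded between them was read from the difference between SZ and IDZ. The choice of genes used the values of both zones, and a gene high mainly in SZ could pass through SZ, so the counts of depth are a description. Of the 193, 135 (69.9%) were called higher in SZ than in IDZ, against 4.57% of all genes, and 1 was called higher in IDZ (1.01% of all genes). In 38 (19.7%) the 95% confidence interval of SZ minus IDZ lay within 2-fold either way, against 89.9% of all genes, and 19 fell in neither class. Of the 105 RZ genes, 30 (28.6%) were lower in SZ than in IDZ, 2 were lower in IDZ, 51 (48.6%) lay within 2-fold and 22 in neither class. For articular genes the median SZ minus RZ was 2.22 and the median IDZ minus RZ 0.85, and for RZ genes the medians were -1.66 and -0.96. Both differences share the RZ arrays. Called against RZ by themselves, SZ had 703 genes higher (4.92%) and 250 lower (1.75%), and IDZ had 101 higher (0.706%) and 75 lower (0.524%). In 38 of the 193 articular genes and 9 of the 105 RZ genes, IDZ by itself did not pass an adjusted p of 0.05 against RZ in limma. Both zones were at least 2-fold from RZ in 74 of the articular genes and 44 of the RZ genes, and more than 4-fold in 5 (Prg4, Fap, Gnas, Cytl1 and Postn) and 7 (F13a1, Tnni2, Car8, Fa2h, Il17b, Mfap3l and Bmp7). The 130 genes called higher in articular cartilage but left out for overlap had a median IDZ minus RZ of 0.25, and 99.2% of them were higher in SZ than in IDZ.

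**Figure D1:**
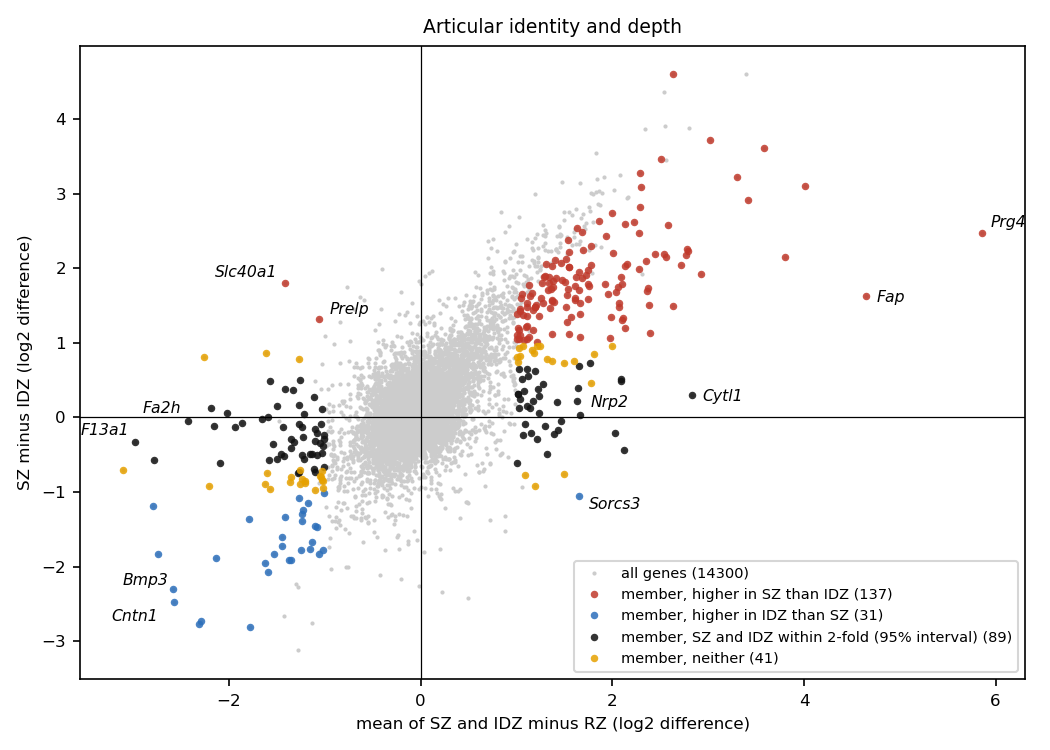
Each point is a gene, with the mean of SZ and IDZ minus RZ (log2 difference) on the x axis and SZ minus IDZ (log2 difference) on the y axis. Grey points are all 14300 genes and coloured points the 298 articular and RZ genes by the depth difference. On the right most points lie high (135 of 193 articular genes higher in SZ), while on the left 51 of the 105 RZ genes lie in the black class near the zero line.

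Promoter windows are shown for genes whose SZ and IDZ lay within 2-fold of each other and that had a window. Among these, the genes with the largest difference in the articular zone nearer to RZ were taken in each direction. They were not the genes most even between SZ and IDZ. Windows of 300 bases, from 250 before to 50 after the annotated start, were taken from RefSeq (rat build GRCr8) and are written 5′ to 3′ on the strand of the gene. Capitals mark the motif GGGCGG, the GC box, and the window of Cytl1 is at chr14:77283596-77283895 (minus strand), of Kcnt2 at chr13:54215057-54215356 (plus strand), of F13a1 at chr17:28020947-28021246 (plus strand) and of Fa2h at chr19:56273431-56273730 (minus strand). The articular genes are Cytl1 and Kcnt2 and the RZ genes are F13a1 and Fa2h.
Cytl1: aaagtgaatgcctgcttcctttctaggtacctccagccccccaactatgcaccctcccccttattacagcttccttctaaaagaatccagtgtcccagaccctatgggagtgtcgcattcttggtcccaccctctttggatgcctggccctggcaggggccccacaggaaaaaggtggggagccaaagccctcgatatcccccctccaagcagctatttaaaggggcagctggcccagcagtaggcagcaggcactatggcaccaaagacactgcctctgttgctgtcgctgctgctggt
Kcnt2: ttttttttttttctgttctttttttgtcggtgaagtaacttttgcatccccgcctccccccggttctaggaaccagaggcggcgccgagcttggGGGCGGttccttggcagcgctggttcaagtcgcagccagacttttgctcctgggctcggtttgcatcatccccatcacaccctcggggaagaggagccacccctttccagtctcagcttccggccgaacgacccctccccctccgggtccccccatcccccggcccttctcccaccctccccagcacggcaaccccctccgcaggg
F13a1: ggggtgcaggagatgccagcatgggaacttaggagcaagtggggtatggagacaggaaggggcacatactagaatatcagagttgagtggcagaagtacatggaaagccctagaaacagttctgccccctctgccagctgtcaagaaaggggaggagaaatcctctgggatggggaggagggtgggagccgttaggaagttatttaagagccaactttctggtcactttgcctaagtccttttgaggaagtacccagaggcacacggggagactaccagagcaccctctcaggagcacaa
Fa2h: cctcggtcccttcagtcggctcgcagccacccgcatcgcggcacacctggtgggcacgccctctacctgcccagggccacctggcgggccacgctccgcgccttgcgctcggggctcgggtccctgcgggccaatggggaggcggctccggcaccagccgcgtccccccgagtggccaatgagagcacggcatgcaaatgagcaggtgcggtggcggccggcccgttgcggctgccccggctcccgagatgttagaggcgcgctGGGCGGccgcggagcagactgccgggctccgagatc

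Windows were found for 157 of the 193 articular genes, 81 of the 105 RZ genes and 11784 of the 14300 genes. GGGCGG, searched on both strands, was present in 45.2% of the articular windows, 59.3% of the RZ windows, 50.2% of the windows of all genes measured and 34.9% of all 27457 rat windows. The median GC content was 57.33% in articular and 64.67% in RZ windows, beside 58% for all genes measured. TATAAA was present in 12.7%, 8.64% and 11.8% of these sets, the AP-1 motif TGANTCA in 7.64%, 7.41% and 6.25%, and the T-box motif TCACACCT in 1.27%, 0% and 1.05%. GACCACCCA, the GLI motif, was in none of the windows of either set and in 0.339% of those of all genes measured. These are counts of letters in a window and no test was made of them.

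Among the articular genes, Prg4, which encodes lubricin, the boundary lubricant of the joint surface, had the largest difference in the zone nearer to RZ. Its log2 level was 12.53, 12.90, 12.97 and 12.72 on the SZ arrays, 10.61, 10.80, 10.95 and 8.86 on the IDZ arrays and 5.24, 6.40, 5.57 and 5.53 on the RZ arrays. All articular arrays were far above RZ, and IDZ array 4 stood below the other IDZ arrays. Pooled over both zones Prg4 was 58.0-fold higher than in RZ, a log2 difference of 5.86 ± 0.31 (SE, adjusted p = 6.7e-09, limma), with 7.09 in SZ and 4.62 in IDZ. In both zones Fap, a membrane serine protease of activated fibroblasts, was also far above RZ, where it read 4.43, 4.78, 4.45 and 4.70 against 10.10, 9.98, 10.24 and 9.88 in SZ and 8.50, 8.33, 8.53 and 8.32 in IDZ. The 3 zones did not overlap, and the pooled difference was 4.65 ± 0.10 (SE, adjusted p = 3.4e-13, limma).

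Cytl1, a secreted protein first described as cytokine-like and known from cartilage, was raised alike in both articular zones. It read 9.21, 9.47, 10.20 and 9.47 in SZ, 9.16, 9.27, 9.20 and 9.50 in IDZ and 6.64, 6.67, 6.54 and 6.58 in RZ. SZ and IDZ overlapped and both were clear of RZ by more than 2 log2 units. Articular cartilage exceeded RZ 7.11-fold, 2.83 ± 0.14 on the log2 scale (SE, adjusted p = 2.8e-09, limma), and SZ minus IDZ was 0.30 with a 95% confidence interval of -0.04 to 0.65. Cytl1 was the only called gene among the 11 chondrocyte markers, beside 3.06% of all genes called in either direction.

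A small group of articular genes behaved like Cytl1. Sim2, a bHLH-PAS transcription factor, read 8.24, 8.35, 8.09 and 8.03 in SZ, 8.33, 8.21, 8.43 and 8.57 in IDZ and 6.28, 5.99, 6.41 and 6.34 in RZ, a pooled difference of 2.03 with SZ minus IDZ at -0.21. Kcnt2, a sodium-activated potassium channel, read 7.05, 7.59, 7.40 and 7.40 in SZ, 7.75, 7.79, 7.83 and 7.84 in IDZ and 5.50, 5.43, 5.30 and 5.59 in RZ, a pooled difference of 2.12. For Sim2 the SZ and IDZ arrays overlapped, whereas every IDZ array of Kcnt2 was above every SZ array by a little, SZ minus IDZ being -0.44 (95% interval -0.67 to -0.20). Nrp2, a receptor for semaphorins and VEGFs, was 1.67 above RZ in SZ and 1.65 in IDZ. Sulf2, an extracellular sulfatase that trims heparan sulfate, and Etv1, an ETS factor whose transcription follows FGF signaling, both had a pooled difference of 2.09 with an excess of SZ over IDZ of 0.49 and 0.51. Sod3, the extracellular superoxide dismutase, with pooled 1.63, and Mest, an imprinted gene, with 1.76, were also within 2-fold between SZ and IDZ and were picked after their values were seen.

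The remaining leading articular genes were graded from SZ through IDZ to RZ. Postn (periostin), Vcan (versican), Col3a1 (type III collagen) and Dpt (dermatopontin), which belong to the matrix of fibrous connective tissue, had pooled differences of 4.01, 3.42, 2.93 and 3.58. Their SZ minus IDZ was 3.10, 2.91, 1.92 and 3.61, each with an adjusted p of at most 1.7e-07 in limma. Dpt was uneven within IDZ, at 8.03, 8.03, 6.88 and 6.73. Postn read 12.09, 11.92, 11.83 and 11.49 in SZ, 8.97, 8.99, 8.39 and 8.60 in IDZ and 5.82, 6.55, 6.40 and 6.34 in RZ, so that all 3 zones were separate. Rhoj, a small GTPase, Agtr2, the type 2 angiotensin receptor, and Enpep, the aminopeptidase that degrades angiotensin II, followed the same order with 2.63, 2.72 and 2.40. Sorcs3, a sorting receptor picked after its values were seen, was the articular gene called higher in IDZ than in SZ, with SZ minus IDZ at -1.06 and a pooled difference of 1.65.

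**Figure D2:**
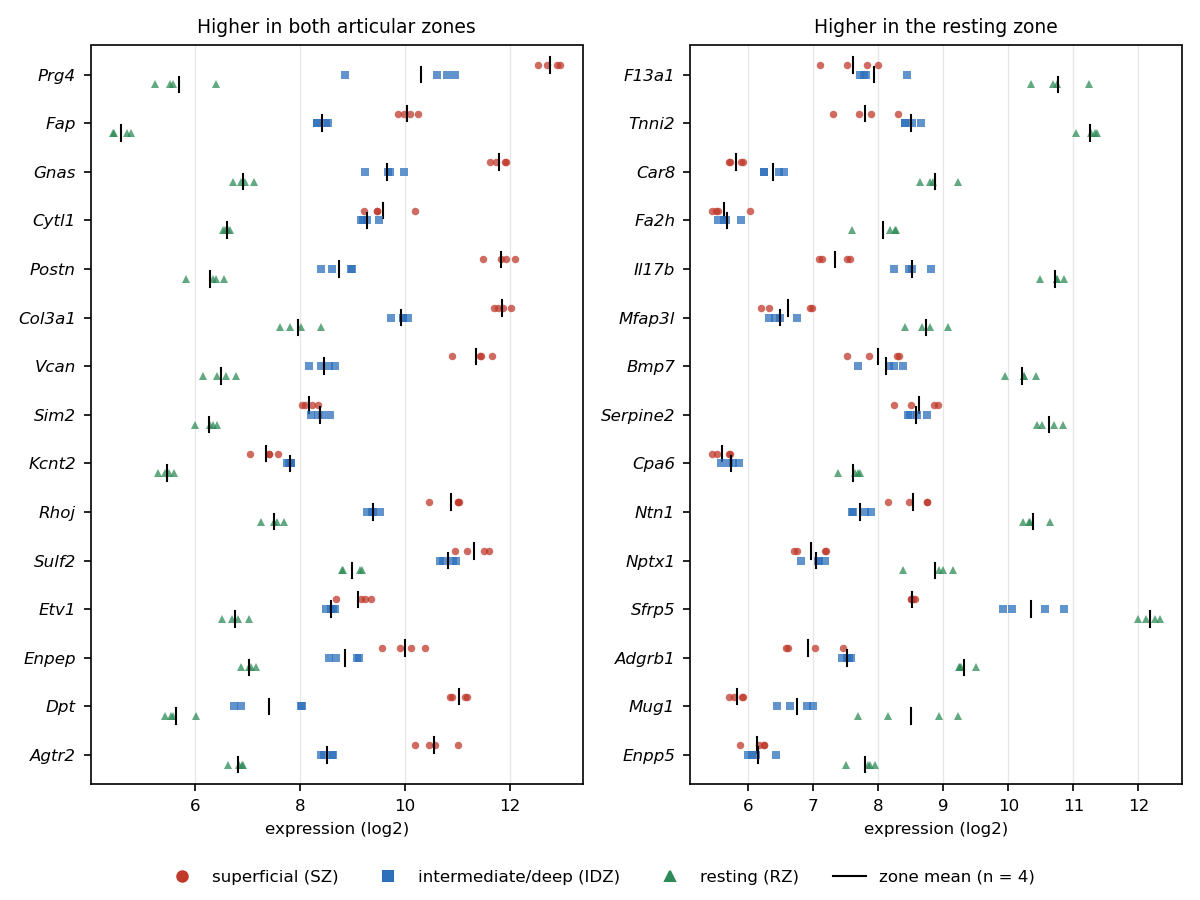
Log2 expression (x axis) on each array for the 15 articular genes (left) and 15 RZ genes (right) with the largest difference from RZ in the articular zone nearer to it. Red circles are SZ, blue squares IDZ and green triangles RZ arrays, with the zone mean (n = 4) as a black line. In every row the RZ arrays lie clear of all articular arrays, and in Cytl1, Sim2, F13a1, Fa2h and Bmp7 the SZ and IDZ symbols lie side by side.

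RZ genes were led by F13a1, the catalytic subunit of the transglutaminase factor XIII. It read 10.35, 10.68, 10.75 and 11.24 in RZ against 7.83, 8.00, 7.52 and 7.10 in SZ and 7.78, 7.81, 7.71 and 8.43 in IDZ. The articular zones overlapped each other and both were lower than RZ by nearly the same amount, -3.15 in SZ and -2.82 in IDZ. The pooled difference was -2.99 ± 0.19 (SE, adjusted p = 2.9e-08, limma), or 7.92-fold. Fa2h, the hydroxylase that makes 2-hydroxylated sphingolipids, read 8.28, 8.26, 7.60 and 8.18 in RZ, 5.44, 5.50, 5.54 and 6.02 in SZ and 5.53, 5.66, 5.63 and 5.89 in IDZ. Its SZ minus IDZ was -0.05 (95% interval -0.39 to 0.29) beside a pooled difference of -2.43. The SZ and IDZ means of Fa2h, 5.62 and 5.68, lay below the array medians of 6.76 to 6.90. At such levels a difference in depth may not show. Car8, a carbonic anhydrase-related protein without enzyme activity, had a pooled difference of -2.78, and Mfap3l one of -2.19. Both genes also had SZ and IDZ means below these medians.

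Secreted signals stood among the leading RZ genes. Bmp7, a BMP ligand, read 10.43, 10.24, 9.95 and 10.25 in RZ, 7.85, 8.31, 8.29 and 7.52 in SZ and 7.69, 8.16, 8.23 and 8.38 in IDZ. The articular zones overlapped and were both clear of RZ, with a pooled difference of -2.16 ± 0.16 (SE, adjusted p = 1.7e-07, limma). Ntn1, the guidance cue netrin-1, was lowest in IDZ, reading 7.61, 7.89, 7.60 and 7.79 there, 8.74, 8.74, 8.48 and 8.15 in SZ and 10.32, 10.34, 10.23 and 10.64 in RZ. Il17b, a cytokine of the interleukin-17 family, and Sfrp5, a secreted Wnt antagonist, were graded, with -3.38 and -3.65 in SZ against -2.20 and -1.83 in IDZ. Among protease inhibitors and proteases, Serpine2 (protease nexin-1) had -2.02 and Cpa6 (carboxypeptidase A6) -1.94, and for both SZ and IDZ lay within 2-fold of each other. The SZ and IDZ means of Cpa6 were below the array medians.

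Tnni2, the inhibitory troponin subunit of fast skeletal muscle, had the largest pooled difference of the RZ genes, -3.10. It read 11.33, 11.27, 11.04 and 11.36 in RZ, 8.30, 7.31, 7.70 and 7.89 in SZ and 8.40, 8.40, 8.52 and 8.65 in IDZ. Of 20 skeletal muscle markers measured Tnni2 alone was called in either direction, beside 3.06% of all genes. The mean level of the list was 6.68 to 6.94 on RZ arrays, 6.65 to 6.78 on IDZ arrays and 6.46 to 7.05 on SZ arrays. The RZ mean was 5.91 for Myog and 5.74 for Myh4, but 8.98 for Tnnt3, another troponin gene of the list. Tnnt3 had means of 7.95 in SZ and 9.53 in IDZ and was not called. Mug1 belongs to a family of near-identical genes whose probes may share signal, so its difference of -2.21 is uncertain. Nptx1 (neuronal pentraxin 1), Adgrb1 (an adhesion G protein-coupled receptor) and Enpp5 completed the leading RZ genes with -1.87, -2.09 and -1.65.

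Matrix genes divided by kind. Of 39 fibrous matrix genes measured, 17 were articular genes and none was an RZ gene, against 1.35% and 0.734% of all genes, and the median of the list was 1.62 beside -0.0021 over all genes. The list's median was 2.33 in SZ and 0.63 in IDZ, and it includes genes that the study's own tables drew from these arrays. Besides those above, Col12a1, Col14a1, Lum and Tnn were articular genes, with Col14a1, a fibril-associated collagen, at 2.09. Of 23 cartilage matrix genes none was an articular gene and 1, Prelp, was an RZ gene, counts too small to set apart from the same shares. Epyc was called higher in RZ with overlap. The median of this list was -0.43 pooled, -0.86 in SZ and 0.025 in IDZ. Prelp, a leucine-rich proteoglycan of the matrix, read 12.33, 12.44, 12.09 and 12.09 in RZ, 11.85, 11.93, 11.87 and 11.71 in SZ and 10.50, 10.64, 10.60 and 10.32 in IDZ. It was lowest in IDZ, as was Slc40a1, the iron exporter ferroportin, picked after its values were seen, and these were the only RZ genes called lower in IDZ than in SZ. Of 34 proteases and inhibitors 11 were articular genes, against the same 1.35%, among them Mmp2, Mmp3, Timp1 and the serine protease Htra1 (pooled 2.38), and 2 were RZ genes, Serpine2 and Cpa6.

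Limb transcription factors were on both sides. Of 32 limb patterning and joint factors measured, 10 were articular genes and 1, Shox2, was an RZ gene, against 1.35% and 0.734% of all genes. These shares apply to the counts of articular and RZ genes in every list that follows. Prrx1, a homeobox factor of limb mesenchyme, read 11.99, 12.04, 11.99 and 11.81 in SZ, 10.21, 10.35, 10.29 and 10.20 in IDZ and 8.66, 8.90, 8.86 and 8.58 in RZ, with all zones apart and a pooled difference of 2.36. Barx1, a homeobox factor, had 1.47 and was even between the articular zones (SZ minus IDZ -0.06). Tbx5, Tbx18, Prrx2, Osr2, Dlx5, Nfia and Nfib made up the rest. Tbx5, the T-box factor best known from the forelimb, was uneven within IDZ, at 8.26, 8.50, 6.68 and 6.97, and read 5.68 to 5.80 in RZ. Shox2, a short stature homeobox factor, had -1.61. None of 21 Hox genes was called, beside 3.06% of all genes called in either direction.

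The Runx factors, which govern chondrocyte and osteoblast differentiation, lay on opposite sides. Runx1 read 9.76, 9.59, 9.47 and 9.67 in SZ and 9.80, 9.81, 9.98 and 9.85 in IDZ, above 8.65, 9.07, 8.56 and 8.41 in RZ. Runx2 read 8.41, 8.38, 8.28 and 8.54 in SZ and 8.34, 8.38, 8.43 and 8.28 in IDZ, below 9.62, 9.63, 9.64 and 9.50 in RZ. The pooled differences were 1.07 for Runx1 and -1.22 for Runx2, each called in limma (adjusted p = 5.1e-06 and 2.1e-08), and Runx3 had -1.28. Without RZ array 4 the difference of Runx1 was 0.98, under the 2-fold minimum. For all 3, SZ and IDZ lay within 2-fold. Of the 32 chondrocyte fate factors 5 were articular genes (Runx1, Foxp1, Nfatc2, Twist1 and Creb5) and 4 RZ genes (Sox8, Sox11, Runx2 and Runx3).

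The 25 genes of hypertrophy and mineralization held 4 RZ genes and 1 articular gene, against 0.734% and 1.35% of all genes. Alpl, the alkaline phosphatase of mineralizing tissue, read 10.54, 10.28, 10.25 and 10.12 in RZ, 8.77, 8.79, 8.73 and 8.53 in SZ and 8.70, 8.77, 8.61 and 8.74 in IDZ. SZ and IDZ were level (SZ minus IDZ 0.00, 95% interval -0.22 to 0.22) at -1.59 from RZ. Smpd3, a neutral sphingomyelinase of cartilage, and Pth1r, the receptor of PTH and PTHrP, had -1.53 and -1.45 and were graded, the difference in IDZ alone being -0.61 and -0.59. The articular gene was Ankh, which exports the mineralization inhibitor pyrophosphate, with 1.96. Col10a1, the hypertrophic collagen, had -0.90 (adjusted p = 0.0035, limma) with overlap. Of 5 hypertrophic chondrocyte markers, Alpl among them, the mean was 8.12 to 8.82 on RZ arrays, 7.37 to 7.55 on IDZ arrays and 7.19 to 7.86 on SZ arrays. Without Alpl, which the criterion chose, the ranges were 7.52 to 8.47, 7.02 to 7.28 and 6.81 to 7.63, so RZ and SZ overlapped. The mean of 8 osteoblast markers, Alpl among them, was 7.70 to 8.44 on RZ arrays, 7.41 to 7.64 on IDZ arrays and 7.78 to 8.52 on SZ arrays. Without Alpl these were 7.30 to 8.19, 7.22 to 7.51 and 7.64 to 8.48, and RZ overlapped both articular zones. The part of hypertrophic cells and osteoblasts in the RZ genes was not tested.

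In the PTHrP and G protein list, Pth1r was an RZ gene while Gnas, the locus of the stimulatory G protein that couples this receptor to adenylyl cyclase, was among the leading articular genes. The cluster named Gnas read 11.74, 11.91, 11.93 and 11.62 in SZ, 9.67, 9.99, 9.71 and 9.24 in IDZ and 6.95, 6.73, 7.13 and 6.88 in RZ. All 3 zones were apart, with a pooled difference of 3.80 ± 0.12 (SE, adjusted p = 5.9e-11, limma). Gnas makes several transcripts, and the sources used here do not say which of them the probes cover. Adcy3, an adenylyl cyclase, had 1.74 and Prkar2b, a regulatory subunit of protein kinase A, had -1.33. Of 21 genes in the list 3 were articular and 2 RZ genes. Of 16 hedgehog genes measured 1 was called, beside 3.06% of all genes called in either direction. It was Gli2, a GLI transcription factor, with -1.01, a call that single arrays left out could undo. Ihh itself had -0.30 (adjusted p = 0.094, limma). The list held 30 genes, and those without a cluster of a single symbol, Hhip and Ptch1 among them, were not analysed. The study reported both as higher in RZ than in IDZ, so the count here is incomplete.

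BMP ligands differed in side. Bmp7 and Bmp3 were RZ genes, and Bmp5 and Bmp6 were articular genes, of 25 ligands and receptors. Bmp3, which opposes other BMPs, read 11.35, 11.33, 11.14 and 11.31 in RZ, 9.71, 9.76, 9.80 and 10.10 in IDZ and 7.42, 7.94, 7.86 and 6.95 in SZ. Bmp5 read 5.23, 5.08, 5.40 and 5.41 in RZ, 6.34, 6.50, 6.78 and 6.62 in IDZ and 8.49, 8.67, 8.90 and 8.13 in SZ. These were graded in opposite directions, Bmp3 with a pooled difference of -2.59 and Bmp5 with 2.28. Bmp6 had 1.06, which fell under 2-fold when SZ array 2 was left out (0.97). No receptor was called, beside 3.06% of all genes called in either direction, Bmpr1a having 0.09 and Bmpr2 0.45. Of 27 antagonists and response genes 1, Dlx5, was an articular gene with 1.32.

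The TGF-beta and Wnt pathways supplied receptors and binding proteins to the articular side. In the TGF-beta list 5 of 19 were articular genes, namely Tgfb3, the co-receptor Tgfbr3, the latent binding proteins Ltbp1 and Ltbp4, and Htra1. Ltbp1 was even between the depths (1.28 in SZ, 1.51 in IDZ), and Ltbp4 was graded (3.54 and 1.35). In the Wnt lists the receptors Fzd4 (2.58), Fzd8 (1.33) and Lgr5 (1.33) and the secreted inhibitor Wif1 (2.77) were articular genes. Fzd8 and Lgr5 met the criterion with most of the difference in SZ, 2.18 and 2.24, against 0.47 and 0.43 in IDZ, and for Lgr5 the latter did not pass (adjusted p = 0.17, limma). The inhibitor Sfrp5 (-2.74) and the nuclear effector Lef1 (-1.46) were RZ genes. No Wnt ligand was called, of 32 ligands and receptors, beside 3.06% of all genes called in either direction. The Wnt agonist Rspo3 was called higher in RZ with overlap (-1.43, of which IDZ alone -0.09), and the feedback target Axin2 had 0.42.

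The FGF list of 26 held the articular genes Etv1, Spry2 (1.28) and Dusp6 (1.61), which are feedback or target genes of FGF signaling, and the RZ gene Fgfr3, a receptor that restrains growth plate chondrocytes. Fgfr3 read 11.33, 11.23, 11.09 and 11.07 in RZ, 10.89, 10.98, 10.86 and 10.92 in IDZ and 8.95, 9.19, 9.39 and 9.03 in SZ. It met the criterion with IDZ only 0.27 below RZ, so its pooled difference of -1.15 came mostly from SZ. Of 18 IGF genes 5 were articular, the ligand Igf1 (3.02) and the binding proteins Igfbp3, Igfbp5 (2.78), Igfbp6 and Igfbp7 (2.56). The RZ gene of this list was Pappa (-1.11), a protease that releases IGFs from binding proteins. Igf1 was uneven within IDZ, as Dpt was, at 8.20, 8.26, 7.31 and 7.12. None of 22 Notch genes met the criteria. Notch3 was called higher in articular cartilage with overlap, as were 0.909% of all genes.

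Guidance and neural adhesion genes were on both sides, with 4 articular genes (Nrp2, Sema3a, Epha3 and Sorcs3) and 5 RZ genes (Ntn1, Cntn1, Nptx1, Efnb2 and Lrrn3) of 47. Cntn1, a neural adhesion protein, was lowered most in SZ, with -3.82 there and -1.33 in IDZ. Of 38 ion channel genes 3 were articular (Kcnt2, the chloride channel Ano1 and the calcium channel Cacna1g) and 1 was an RZ gene, Kcnip1. Cacna1g was 2.25 above RZ in SZ and 0.35 in IDZ, where it did not pass (adjusted p = 0.11, limma). Of 30 cell cycle genes 2 were RZ genes, cyclin E1 (Ccne1, -1.50) and the inhibitor Cdkn1c (-1.27). The RZ gene of the 30 glycolysis and hypoxia genes was Adm (adrenomedullin, -1.16). Genes listed for the resting zone fell on both sides, with 6 RZ genes, among them Sfrp5 and Bmp3, and 3 articular genes, Col14a1, Apoe and Ptn, of 19. In the joint surface list 2 of 18, Prg4 and the factor Creb5 (2.01), met the criteria. A further 5 were called higher in articular cartilage with overlap, beside 0.909% of all genes.

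**Figure D3:**
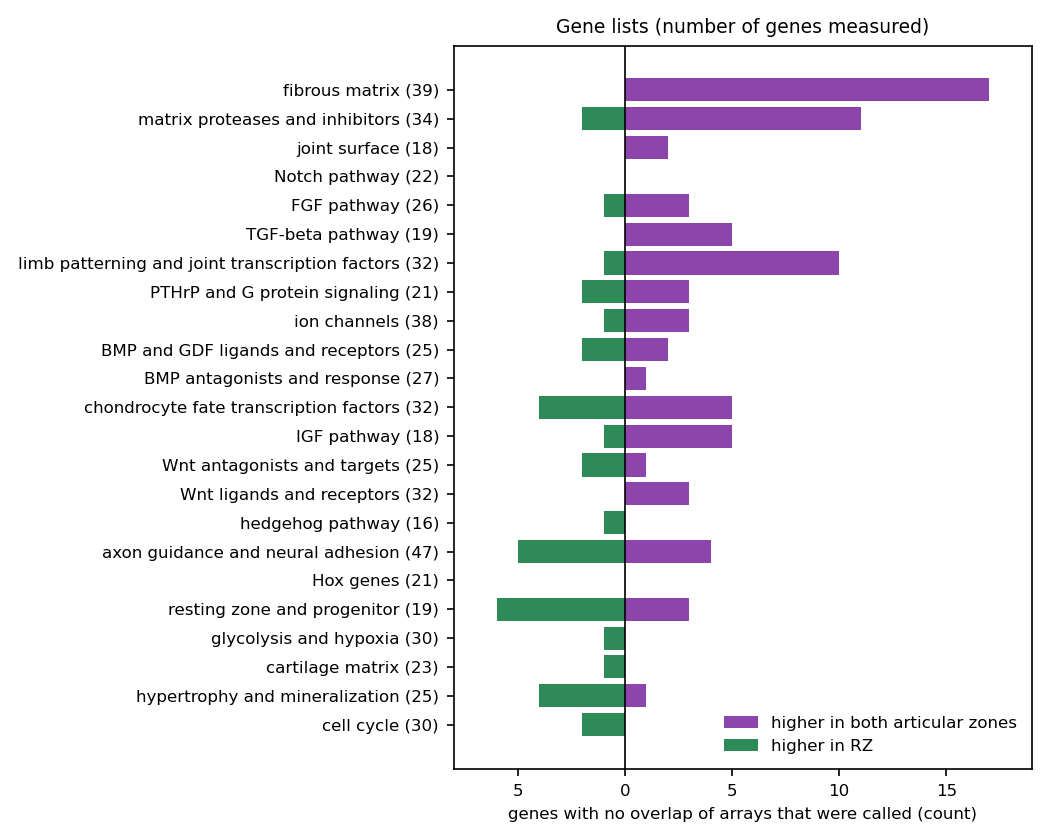
Number of genes of each list (y axis, with the number measured in brackets) that were articular genes (purple, to the right) or RZ genes (green, to the left), with the count on the x axis. Fibrous matrix (17 and 0), proteases (11 and 2) and limb and joint factors (10 and 1) lean to the articular side. The Hox and Notch lists are empty, where 2.08% of all genes are articular or RZ genes.

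Endothelial, mural and macrophage markers were higher in SZ arrays than in IDZ or RZ arrays. Of 14 endothelial markers 10 were called higher in articular cartilage, but 1, Tie1, was an articular gene. Of all genes 2.26% were called higher in articular cartilage, a share that also applies to the called counts of the next lists. The list's mean was 8.42 to 8.96 on SZ arrays, 6.39 to 6.84 on IDZ arrays and 6.24 to 6.51 on RZ arrays. Of 19 macrophage and myeloid markers 9 were called and none was an articular gene, the ranges being 7.99 to 8.82, 6.48 to 6.62 and 6.23 to 6.84. Of 13 pericyte and smooth muscle markers 4 were called and 1, Pdgfrb, was an articular gene.

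The markers of fibroblast-like tissues include genes chosen by the criterion. The mean of 9 tendon and ligament markers was 10.04 to 10.31 in SZ, 8.03 to 8.36 in IDZ and 7.77 to 7.99 in RZ, with 3 articular genes (Tnmd, Igfbp6 and Cpxm2). The mean of 11 synovial fibroblast markers was 8.90 to 9.32, 7.43 to 7.75 and 6.74 to 7.01, with 2 articular genes (Prg4 and Htra1). Without their articular genes, IDZ and RZ overlapped in both lists, at 8.56 to 8.97 and 8.34 to 8.71 for tendon and ligament and at 6.99 to 7.20 and 6.77 to 6.99 for synovial fibroblasts. Of 10 adipocyte markers 1, Fabp4, was an articular gene, and the ranges were 6.82 to 7.39, 6.07 to 6.23 and 5.76 to 6.10. The part of these cells in the articular genes was not tested.

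**Figure D4:**
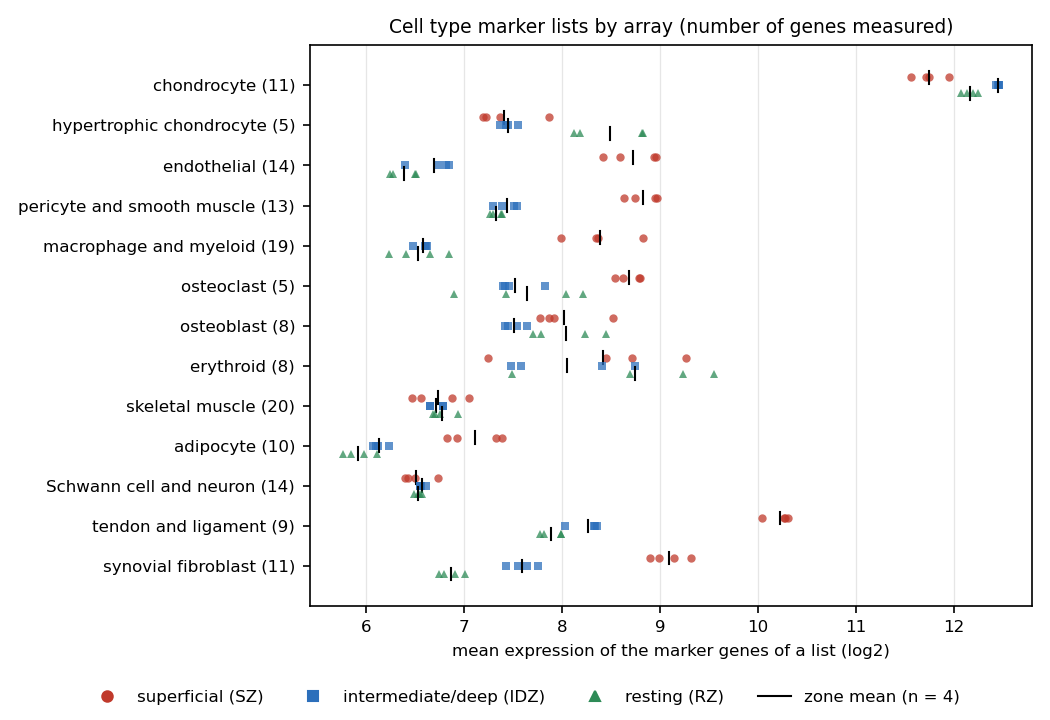
Mean log2 expression of each marker list (x axis) on every array, with the number of genes measured in brackets, as red circles for SZ, blue squares for IDZ, green triangles for RZ and black lines for zone means (n = 4). Endothelial, pericyte, macrophage, tendon and synovial lists are higher in all SZ arrays than in any IDZ or RZ array, and IDZ clears RZ in the tendon and synovial lists, which hold 3 and 2 of the articular genes.

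A pooled mean of the articular zones also hides genes in which SZ and IDZ lay on opposite sides of RZ. In 147 genes all SZ arrays were above and all IDZ arrays below RZ, and in 64 genes the reverse held, 1.03% and 0.448% of all genes. The following were picked by the size of the smaller difference among these genes. A2m, a broad protease inhibitor of plasma and tissues, read 6.99, 7.37, 7.70 and 6.88 in SZ, 8.44, 8.52, 8.31 and 8.23 in RZ and 9.40, 9.52, 9.43 and 9.63 in IDZ. Its pooled difference was -0.01, while SZ minus IDZ was -2.26 (adjusted p = 5.3e-08, limma).

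Grem1, a BMP antagonist, and Sfrp1, a Wnt antagonist, had the same order, with SZ minus RZ of -0.95 and -1.29 and IDZ minus RZ of 1.40 and 0.88. In the other direction stood Zdhhc2, a palmitoyltransferase, at 0.90 in SZ and -0.93 in IDZ, and Laptm4b, a lysosomal membrane protein, at 0.99 and -0.90. For Grem1, Sfrp1 and these genes the pooled difference was 0.22, -0.20, -0.02 and 0.04, so the pooled comparison with RZ alone does not show them.

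**Figure D5:**
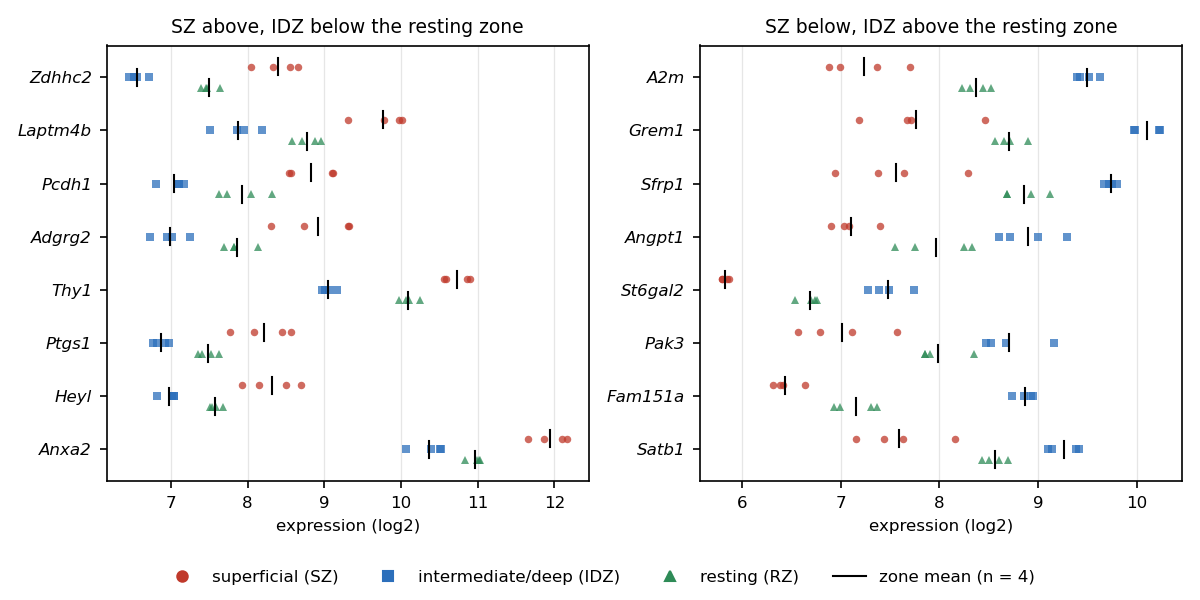
Log2 expression (x axis) on each array for 8 genes with SZ above and IDZ below RZ (left) and 8 with SZ below and IDZ above RZ (right), as red circles for SZ, blue squares for IDZ, green triangles for RZ and black lines for zone means (n = 4). The RZ symbols lie between the others in every row.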

How the data were processed

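RNA of microdissected SZ, IDZ and RZ was hybridized to 12 arrays, 4 per zone. The log2 values deposited were made by the authors with RMA in Partek Genomics Suite 6.6 and cover 27342 transcript clusters. No further normalization was applied (array medians 6.76 to 6.90). The interquartile range was unequal, from 2.24 on SZ array 4 to 2.91 on SZ array 2. A single symbol marked 15068 clusters, the brightest standing for a gene with several. Genes without such a cluster, among them Hhip, Ptch1, Sox9, Gdf5 and Pthlh, were not analysed.

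Limma 3.58.1 (R 4.3.3) was fitted with 1 mean per zone, and p was adjusted by Benjamini-Hochberg over all clusters. The fit was tested on simulated data. Named were the 15 genes per direction with the largest difference in the articular zone nearer to RZ, up to 4 per list of 36 lists, and further list genes or genes picked after their values were seen. Genes, lists and depth classes were chosen with earlier results of these data known. IDZ and RZ samples that share animals had deviations correlated at 0.02 to 0.21, so no block was used. The number of arrays limits the precision. Alternatives were other variances, blocks, weights, scalings, filters and single arrays left out. Figures were drawn with matplotlib 3.10.9.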

Additional observations from a re-analysis of the deposited data

Results flagged for a closer look

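Arrays that stood apart from the other 3 of their zone were looked for in the 76 named genes, 228 groups of 4 arrays in all, by the gap to the nearest array divided by the range of the zone. The ratio was above Dixon's 95% critical value in 17 groups, and chance gives about 1 in 20. Of the leading genes, Prg4 had a ratio of 0.837 in IDZ (array 4), F13a1 0.859 in IDZ (array 4), Rhoj 0.968 in SZ (array 4), and Fa2h 0.835 in SZ (array 4) and 0.850 in RZ (array 3). In IDZ, array 4 also stood apart for Htra1 (0.950), Igfbp7 (0.832) and Ltbp4 (0.888), array 3 for Cntn1 (0.961) and array 2 for Fzd4 (0.874). In RZ, array 1 stood apart for Adgrb1 (0.882) and Adm (0.935), array 2 for Col14a1 (0.869), array 3 for Bmp3 (0.837) and array 4 for Runx2 (0.852). In SZ, array 4 stood apart for Shox2 (0.832) and array 1 for Sox8 (0.923). Leaving out any 1 of these arrays changed no call of these genes.

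SZ and IDZ moved to opposite sides of RZ on all arrays in 147 genes with SZ above and 64 genes with SZ below. The difference between the zones' effects was not tested over these counts. For single genes it is SZ minus IDZ, as given for A2m.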

How the results depend on the processing

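Without a 2-fold minimum, 1405 genes were called higher in articular cartilage and 1336 in RZ, of which 499 and 731 also had no overlap. Tested against a 2-fold difference (treat), 120 and 34 were called, and 87 and 34 with no overlap. With the 8 articular arrays as 1 group, whose spread then includes the step from SZ to IDZ, 117 genes were called higher in articular cartilage and 87 in RZ, 115 and 84 of them with no overlap. With both zone means at least 2-fold from RZ in place of no overlap, 76 and 45 genes qualified, 76 and 45 of them called. With each array left out in turn, genes with no overlap numbered 534 to 676 (articular) and 833 to 1098 (RZ). Fewer arrays can only keep or raise these counts. Called genes then numbered 301 to 364 (articular) and 103 to 127 (RZ), and genes meeting both criteria 183 to 232 and 96 to 116. Articular genes higher in SZ than in IDZ were then 126 to 173 and those within 2-fold 36 to 46, and RZ genes lower in SZ were 25 to 33 and those within 2-fold 47 to 59. With a fixed replicate block for the pair of animals 194 articular and 104 RZ genes met both criteria, and with a random block 188 and 105. The blocks changed no call of a named gene. Without dim clusters, those with a mean level below the median, 174 articular and 89 RZ genes met both criteria. Of these RZ genes, 29 were lower in SZ and 38 lay within 2-fold. Of these articular genes, 119 were higher in SZ and 37 lay within 2-fold. Scalings moved the share of genes higher in articular cartilage among the called from 70.7% to 76.9% and among genes with no overlap from 34.5% to 45.1%. Quantile normalized again, 594 genes were above and 856 below RZ with no overlap, and 191 and 97 met both criteria. Over the 76 named genes and 23 settings no direction reversed, and 41 of 1743 values lost their call. Of these 20 were under treat and 9 with 1 articular group (Cacna1g, Creb5, Fgfr3, Fzd8, Igf1, Lgr5, Prelp, Pth1r and Smpd3), and the others were of Gli2, Prelp, Bmp6 and Runx1, which lie close to 2-fold. The pooled difference of Gli2 was -0.99 without SZ replicate 1 or 4 and -0.9996 without IDZ replicate 3, that of Prelp -0.99 without RZ replicate 2, that of Bmp6 0.97 without SZ replicate 2 and 0.99 without RZ replicate 4 and 0.9995 without RZ replicate 3, and that of Runx1 0.98 without RZ replicate 4, all at an adjusted p under 0.05. Other calls of Gli2 were lost with array weights or another scaling, and 1 of Prelp with another quantile normalization. The choice of a gene's next brightest cluster gave no values, since no named gene had several clusters.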
